A study of Mus musculus with 24 samples.

Results

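Expression of 10 genes of the transforming growth factor beta (TGF-beta) pathway was examined in liver of lipodystrophic and control mice, out of 23972 genes in the deposited table. The genes were taken by symbol and comprise the ligands Tgfb1, Tgfb2, and Tgfb3, the receptors Tgfbr1, Tgfbr2, and Tgfbr3, the signal transducers Smad2, Smad3, and Smad7, and the target gene Tgfbi. All 10 were found, and all 10 were kept by edgeR's filter on low counts. All mice were female, carried loxP-flanked Lmna alleles (Lmna fl/fl), were 12 to 14 weeks old at the start, were housed at 22°C, and were fed a high-fat diet (HFD). Lmna ADKO mice also carried Adipoq-Cre, which is driven by the adiponectin promoter and deletes Lmna in adipocytes, so that they lose adipose tissue, whereas controls lacked Cre. After 4 weeks of diet, mice received vehicle or the treatment that the labels name a rescue, and liver was taken 8 weeks later. The rescue was read as an adeno-associated virus vector carrying FGF21 alone, from the study's account of its liver RNA-Seq experiment at 22°C. In other experiments, the study gave FGF21 together with a soluble form of TGFBR2 that binds TGF-beta ligand. The labels do not name what the vector carried, so this reading could not be checked from them. The groups were vehicle-treated controls (n = 7), FGF21-treated controls (n = 3), vehicle-treated Lmna ADKO mice (n = 6), and FGF21-treated Lmna ADKO mice (n = 8). Each library came from 1 mouse by its label.

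TGF-beta ligands are secreted in a latent complex and act after they are released from it. An active ligand dimer binds TGFBR2, a kinase that then recruits and phosphorylates TGFBR1. TGFBR1 phosphorylates SMAD2 and SMAD3, which enter the nucleus with SMAD4 and change transcription. In liver, the pathway is best known for driving hepatic stellate cells to make extracellular matrix. TGFBR3, or betaglycan, is a co-receptor without kinase activity that presents ligands, TGFB2 in particular. SMAD7 is induced by the pathway and feeds back on the receptors, and Tgfbi encodes a secreted matrix protein that was named for its induction by TGF-beta.

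The libraries held 19863304 to 21510054 counted reads each. A total of 3 libraries stood apart, with levels that fell, against the median of their genotype, as genes became longer. The slope was that of the log2 level minus the genotype's median on log2 gene length. These were FGF21-treated Lmna ADKO library 7 (slope -0.331), FGF21-treated control library 3 (-0.289), and vehicle-treated control library 3 (-0.154). The next lowest slope was -0.109, in FGF21-treated Lmna ADKO library 2. FGF21-treated Lmna ADKO library 3 lay beyond the vehicle-treated Lmna ADKO libraries on the first principal component, at -43.8 against -38.3 to -16.1, where the rest of its own group lay between -15.4 and -4.25. Fgf21 did not set the treated groups apart, with 1.9 to 10.8 CPM (library-scaled read counts, set to a common total of 1e6 reads) in vehicle-treated controls, 3.14 to 7.4 in FGF21-treated controls, 4.63 to 10.6 in vehicle-treated Lmna ADKO mice, and 2.19 to 9.99 in FGF21-treated Lmna ADKO mice. Lmna is deleted only in adipocytes, so its level in liver does not check the genotype. Alb, the hepatocyte marker that encodes albumin, lay between 52493 and 113567 CPM in the 24 libraries. The adipocyte marker Adipoq had at most 13 reads in a library.

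The promoters of Tgfbr2 and Tgfb2, a receptor and a ligand that were higher in lipodystrophic liver below, are shown here so that the letters before their start sites can be read beside their levels. Tgfbr2 lies on chromosome 9 from 116084293 to 116175360 on the minus strand of GRCm38, and Tgfb2 on chromosome 1 from 186622792 to 186705989 on the same strand. The 250 bases before each start are from RefSeq (GRCm38.p6), printed 5′ to 3′ along the gene from chr9:116175364-116175613 and chr1:186705990-186706239. Capitals mark the Smad box letters CAGAC, the AP-1 letters TGANTCA, and the GC box letters GGGCGG, each on either strand.
Tgfbr2: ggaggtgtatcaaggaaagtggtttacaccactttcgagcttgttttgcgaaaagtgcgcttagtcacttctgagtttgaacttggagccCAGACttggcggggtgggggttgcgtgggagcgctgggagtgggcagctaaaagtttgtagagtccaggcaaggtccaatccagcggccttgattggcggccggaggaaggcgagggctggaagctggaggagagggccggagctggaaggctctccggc
Tgfb2: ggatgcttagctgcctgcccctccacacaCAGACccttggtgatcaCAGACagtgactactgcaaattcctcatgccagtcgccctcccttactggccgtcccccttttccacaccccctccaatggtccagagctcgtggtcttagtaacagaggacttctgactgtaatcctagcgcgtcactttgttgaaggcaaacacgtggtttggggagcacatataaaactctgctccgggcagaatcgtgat

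The Tgfbr2 window held CAGAC 1 time, at -160 from the start, and the Tgfb2 window 2 times, at -221 and -204. These letters occur in 42.2% of the 32851 mouse promoter windows of this length. TGANTCA, found in 6.75% of windows, and GGGCGG, found in 32.7%, had 0 matches in both. Tgfb2 also held TATAAA at -31, in lower case above, as do 12.4% of windows, and no match overlapped another. The Tgfb1 window was the one with the most GC boxes among the genes with a promoter in the table, with 5 matches of GGGCGG and 0 of CAGAC. Among the other genes that were not called below, the Tgfbi window held CAGAC 2 times and the Smad3 window 0 times. Of the Tgfbr1 windows, at different starts, 1 held CAGAC 1 time and the other 0 times. Each match is a description of the letters and not a binding site.

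To compare genes, levels were divided by the length of all annotated exons of a gene, merged over its transcripts. Other lengths were not tried. On this scale, Tgfbi was the most abundant of the 10 genes in vehicle-treated controls, with 18.8 ± 2.22 CPM per kb (SD, n = 7). Next came Tgfb1 with 3.23 ± 0.374, Tgfbr1 with 2.67 ± 0.44, Smad3 with 2.44 ± 0.269, Tgfbr2 with 2.2 ± 0.288, and Smad7 with 1.96 ± 0.481 CPM per kb, whose neighbours in this order differed by less than the sum of their SDs. Smad2 (1.5 ± 0.16) and Tgfbr3 (1.43 ± 0.177) had similar levels. Tgfb3 (0.328 ± 0.0494) and Tgfb2 (0.0632 ± 0.024) were the least abundant, below Tgfb1 by more than the SDs. In vehicle-treated Lmna ADKO mice (n = 6) Tgfbr2 stood second, with 4.13 ± 0.539 CPM per kb, followed by Tgfb1 with 3.5 ± 0.281, a gap smaller than the sum of their SDs.

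**Figure D1:**
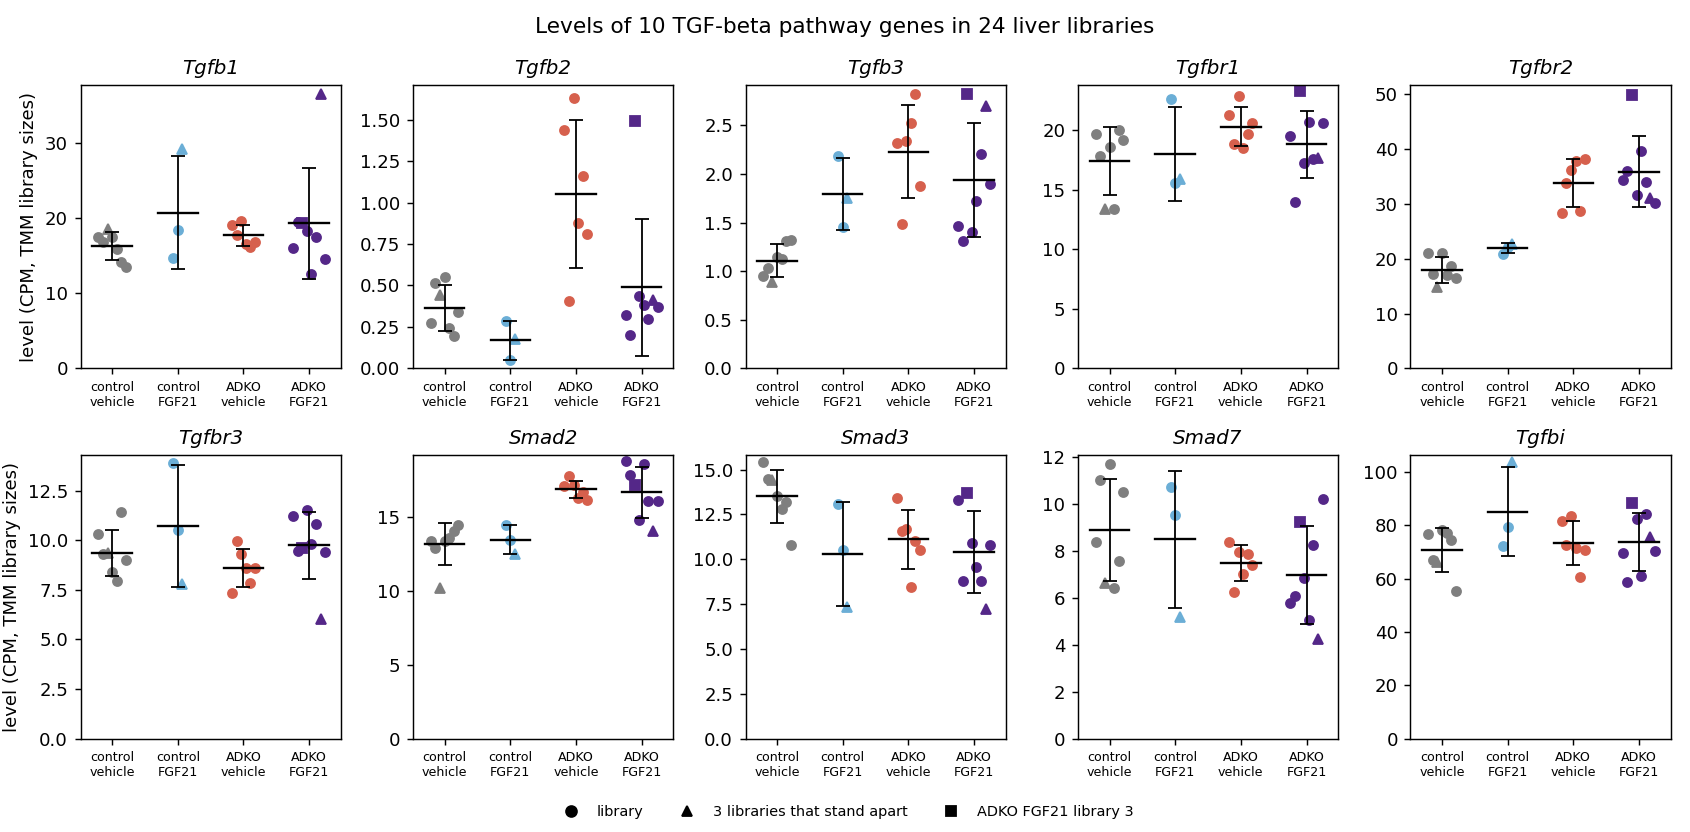
Level of each of the 10 genes in CPM (vertical axis, from 0) in every library of the 4 groups. Horizontal lines and bars are the mean ± SD, triangles are the 3 libraries that stand apart, and squares are FGF21-treated Lmna ADKO library 3. Lmna ADKO libraries of Tgfbr2 lie at 28.4 CPM or higher, above the control libraries, which reach 22.6.

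To ask which parts of the pathway differed in lipodystrophic liver, vehicle-treated Lmna ADKO mice were compared with vehicle-treated controls. Tgfbr2, Tgfb2, and Tgfb3 were higher, and 0 of the 10 genes were called lower. Calls rest on edgeR's quasi-likelihood test with Benjamini-Hochberg adjustment over all genes, and need both an adjusted p under 0.05 and more than a 1.5-fold difference. Of all genes, 8.48% were called in this comparison in either direction and 5.12% were called higher. These shares, and those of all genes below, include genes of very low count, since no filter was applied. Smad2 passed the adjusted p alone, as did 15.1% of all genes, with a fold change under the threshold. The median log2 fold change of the 10 genes was 0.17, against -0.014 over all genes whose mean log2 CPM was 0 or more. DESeq2 also called 3 of the 10. The 10 genes were chosen with earlier results of these data known.

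Among the receptors, Tgfbr2 had the clearest difference between genotypes. In vehicle-treated controls its lowest, median, and highest levels were 14.8, 17.2, and 21.1 CPM, and in vehicle-treated Lmna ADKO mice 28.4, 35, and 38.2 CPM. The groups did not overlap, as was the case for 7.95% of all genes in this comparison. The log2 fold change was 0.91 with a standard error (SE) of 0.113 and an adjusted p of 2.46e-06, or 1.88-fold. All 6 Lmna ADKO libraries were above all 7 controls. Control and Lmna ADKO mice were numbered largely in different series, 3-digit animal numbers in 6 of 7 vehicle-treated controls and in 1 of 6 vehicle-treated Lmna ADKO mice, so that each series held only 1 library of 1 of the groups, and genotype was compared within series only through a covariate. With the series as a covariate the log2 fold change of Tgfbr2 was 0.96 (adjusted p 5.52e-05). In bulk liver RNA, more cells that express a gene and more RNA per cell cannot be told apart.

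Tgfbr1, the receptor that TGFBR2 activates, had 17.4 ± 2.87 CPM in vehicle-treated controls (n = 7) and 20.3 ± 1.64 CPM in vehicle-treated Lmna ADKO mice (n = 6). This difference did not pass the test (log2 fold change 0.22, SE 0.12, adjusted p 0.249), and its 95% interval ran from -0.02 to 0.45. The co-receptor Tgfbr3 had 9.37 ± 1.16 and 8.6 ± 0.959 CPM, with a log2 fold change of -0.12 and an interval from -0.38 to 0.14 (adjusted p 0.598).

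Among the ligands, Tgfb2 had a log2 fold change of 1.51 (SE 0.393, adjusted p 0.00816), on few reads. Its counts were 4 to 12 reads in vehicle-treated control libraries and 9 to 39 in vehicle-treated Lmna ADKO libraries. The lowest, median, and highest levels were 0.194, 0.341, and 0.552 CPM in controls and 0.406, 1.02, and 1.63 CPM in Lmna ADKO mice. Of the 6 Lmna ADKO libraries, 5 lay above all controls and library 2, at 0.406 CPM, lay among them. Tgfb2 shares 295 bases with the antisense gene Gm29491, for which no count was used here. With the number series as a covariate, the log2 fold change of Tgfb2 was 1.90 (adjusted p 0.00689).

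Tgfb3 had 0.884, 1.13, and 1.32 CPM as its lowest, median, and highest level in vehicle-treated controls, and 1.49, 2.33, and 2.82 CPM in vehicle-treated Lmna ADKO mice. The groups did not overlap, as for 7.95% of all genes. The log2 fold change was 1.0 (SE 0.199, adjusted p 0.000799), and 0.87 with the number series as a covariate (adjusted p 0.0156). Tgfb3 lies on the minus strand and shares 5149 bases with Ttll5 on the plus strand, which had a mean of 176.1 reads per library against 36.88 for Tgfb3. The strand setting of the counting is not given in the sources used here, so reads of the shared stretch may belong to either gene. Tgfb1, the main ligand, had 16.3 ± 1.89 CPM in controls (n = 7) and 17.7 ± 1.42 CPM in Lmna ADKO mice (n = 6), and did not pass the test (log2 fold change 0.12, SE 0.177, adjusted p 0.735, 95% interval -0.23 to 0.46).

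Smad2 was higher in vehicle-treated Lmna ADKO mice by a small and uniform margin. It had 10.2, 13.4, and 14.5 CPM as its lowest, median, and highest level in controls and 16.2, 16.9, and 17.8 CPM in Lmna ADKO mice. The groups did not overlap, as for 7.95% of all genes. The lowest control value was that of library 3, which stands apart, and without the 3 such libraries the log2 fold change was 0.31 (adjusted p 0.00252). With all libraries the log2 fold change was 0.36 (SE 0.0891, adjusted p 0.00594), or 1.28-fold, which is under the fold threshold. Smad3, the partner of SMAD2 in carrying the signal, had 13.5 ± 1.49 CPM in controls (n = 7) and 11.1 ± 1.63 CPM in Lmna ADKO mice (n = 6), with a log2 fold change of -0.28 that did not pass (SE 0.141, adjusted p 0.194). The inhibitory Smad7 had 8.88 ± 2.17 and 7.47 ± 0.758 CPM, and its log2 fold change of -0.25 had a 95% interval from -0.62 to 0.12 (adjusted p 0.436). Tgfbi had 70.8 ± 8.36 and 73.4 ± 8.27 CPM, with a log2 fold change of 0.05 and an interval from -0.17 to 0.27 (adjusted p 0.827). Of Smad2, Smad3, Smad7, and Tgfbi, Smad2 alone passed the adjusted p in this comparison.

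**Figure D2:**
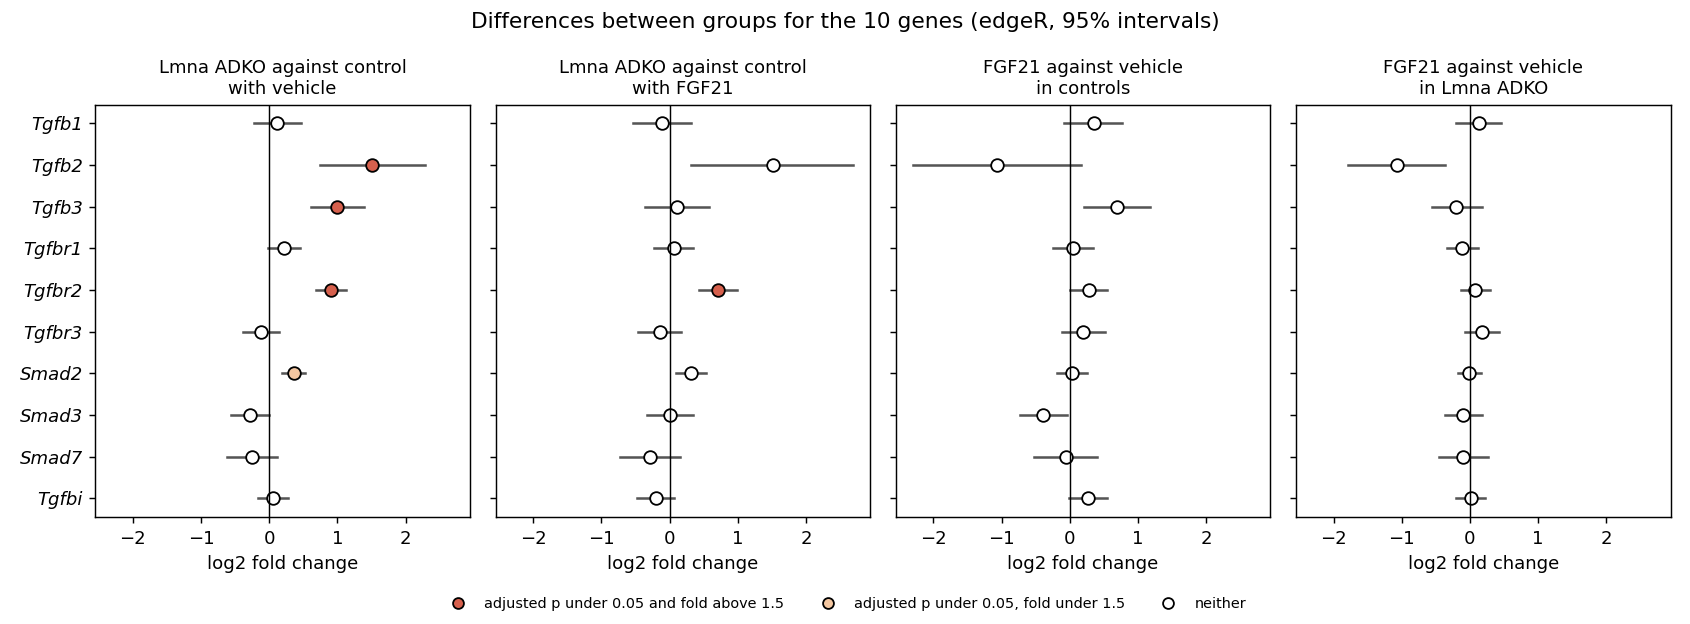
Log2 fold change of each gene (horizontal axis) with its 95% interval in the 4 comparisons of groups by edgeR. Filled points mark an adjusted p under 0.05, in red with a fold change above 1.5. Tgfbr2, Tgfb2, and Tgfb3 are red with vehicle, Tgfbr2 alone is red with FGF21, and no point is filled in the comparisons of FGF21 with vehicle.

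The genotypes were then compared among FGF21-treated mice, in which the controls were only 3. Tgfbr2 was called higher again in Lmna ADKO mice and was the only one of the 10 genes called, where 2.88% of all genes were called and 1.61% were called higher. It had 20.9, 22.1, and 22.6 CPM in the 3 controls and 30.1, 34.1, and 49.9 CPM as its lowest, median, and highest level in Lmna ADKO mice. The groups did not overlap, as for 5.35% of all genes, and the log2 fold change was 0.71 (SE 0.143, adjusted p 0.00376), or 1.64-fold. With only the libraries of 4-digit animal numbers, 3 controls against 4 Lmna ADKO mice, it was 0.62 (adjusted p 0.049).

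Tgfb2 had 0.285, 0.0499, and 0.175 CPM in FGF21-treated controls, which correspond to 6, 1, and 3 reads. In FGF21-treated Lmna ADKO mice, 7 of 8 libraries lay between 0.201 and 0.435 CPM, and library 3 had 1.49 CPM. The log2 fold change was 1.51 and did not pass (SE 0.606, adjusted p 0.182). It was 0.98 without Lmna ADKO library 3, 1.07 without control library 2, and 2.14 without control library 1 (adjusted p 0.366, 0.477, and 0.128), and 1.17 with the number series as a covariate (adjusted p 0.407). Tgfb3 had 2.19, 1.45, and 1.75 CPM in FGF21-treated controls and 1.31, 1.81, and 2.82 CPM as its lowest, median, and highest level in Lmna ADKO mice, and the groups overlapped (log2 fold change 0.11, adjusted p 0.856). Smad2 had 12.5 to 14.5 CPM in controls and 14.1 to 18.8 CPM in Lmna ADKO mice, with a log2 fold change of 0.31 (SE 0.111, adjusted p 0.121). DESeq2 gave it 0.29 and an adjusted p of 0.0311. By edgeR, 3.85% of all genes passed the adjusted p alone in this comparison. DESeq2 called more genes here, 1006 against 690 by edgeR, so the edgeR share does not apply to it. The other 6 genes had log2 fold changes between -0.29 and 0.06, with adjusted p-values of 0.462 or higher.

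FGF21-treated mice were next compared with vehicle-treated mice of the same genotype, to ask whether treatment moved the pathway. By edgeR, 0 of the 10 genes were called in controls, with 2 at an unadjusted p under 0.05, and 0 were called in Lmna ADKO mice, with 1 at that level. DESeq2 called 0 in both. Few genes of any kind were called, 0.0542% in controls and 0% in Lmna ADKO mice. In controls, the genes at an unadjusted p under 0.05 were Tgfb3 (log2 fold change 0.69, SE 0.247, adjusted p 0.619) and Smad3 (-0.39, SE 0.178, adjusted p 0.771). All 3 FGF21-treated controls had 4-digit animal numbers, as did 1 of the 7 vehicle-treated controls. With the number series as a covariate, the values were 0.53 for Tgfb3 and -0.08 for Smad3. All 3 FGF21-treated controls lay above all 7 vehicle-treated controls in Tgfb3, as the groups did not overlap for 1.67% of all genes. For Tgfbr2 the log2 fold change was 0.28 (adjusted p 0.771), with 2 of the 3 treated controls above all vehicle-treated ones.

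In Lmna ADKO mice, the log2 fold change of Tgfb2 between FGF21 and vehicle was -1.07 (SE 0.366, adjusted p 0.681). Its median was 1.02 CPM with vehicle and 0.376 CPM with FGF21, and the groups overlapped through FGF21-treated library 3, at 1.49 CPM, and vehicle-treated library 2, at 0.406 CPM. Without FGF21-treated library 3 the log2 fold change was -1.60 and the adjusted p 0.0242, so this 1 library decided the call. It also had the highest Tgfbr2, at 49.9 CPM, Tgfb3, at 2.82 CPM, and Tgfbi, at 88.5 CPM, of its group. The same library had the highest summed stellate cell and fibroblast markers of all 24, at 533 CPM, and the highest cholangiocyte markers, at 242 CPM, of which Spp1 was 224. Tgfbr2 itself had 35.8 ± 6.47 CPM with FGF21 (n = 8) and 33.8 ± 4.41 CPM with vehicle (n = 6), a log2 fold change of 0.08 with a 95% interval from -0.13 to 0.3. The groups did not overlap for 0.0751% of all genes and for 0 of the 10.

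Whether the effect of FGF21 differed between genotypes was tested as an interaction. By edgeR, 0 of the 10 genes were called, 1 at an unadjusted p under 0.05, and DESeq2 called 0. Of all genes, 0.00417% were called. The gene at that level was Tgfb3, with an interaction of -0.89 on the log2 scale (SE 0.309, adjusted p 0.984).

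The rest of the pathway was described with 94 other genes in 6 lists by role. With vehicle, 16 were called higher and 6 lower in Lmna ADKO mice, 23.4% of the 94 against 8.48% of all genes. These 2 shares are not matched for expression level, since all genes include many of very low count. With filterByExpr, edgeR's filter on low counts, 14680 genes were kept and 1984 were called. In that fit, 18 of the listed genes were called higher and 6 lower. The lists were drawn with earlier results known, and some genes belong to more than 1 list. Without the 3 libraries that stand apart, the list with the most calls, the target genes, had 5 called higher and 0 lower in place of 8 and 2. Without vehicle-treated Lmna ADKO library 3, 10 of the 94 were called higher and 5 lower. With the number series as a covariate, 12 were called higher and 2 lower.

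Genes that store and release the ligands moved in both directions. Of 18 genes of latency and activation, 3 were called higher and 1 lower with vehicle, where 8.48% of all genes were called. The list median was 0.18. Thbs1, which encodes thrombospondin 1 and can release TGF-beta from its latent complex, had 1.12 ± 0.353 CPM in controls (n = 7) and 4.56 ± 1.64 CPM in Lmna ADKO mice (n = 6), a log2 fold change of 2.01 (SE 0.333, adjusted p 0.00015). Its groups did not overlap, as for 7.95% of all genes. Ltbp1, which ties the latent ligand to the matrix, was higher by 0.71 on the log2 scale (adjusted p 0.0185). It missed the threshold without vehicle-treated Lmna ADKO library 3 (0.61, adjusted p 0.0627) or library 6 (0.63, adjusted p 0.0553). Plg, which encodes the hepatocyte-made plasma protein plasminogen, fell by 0.89 on the log2 scale (SE 0.135, adjusted p 3.36e-05), from 3136 ± 253 CPM (n = 7) to 1693 ± 281 CPM (n = 6).

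Among 9 co-receptors and decoys, 0 were called higher and 1 lower with vehicle, near the 8.48% of all genes that were called. Nrp1, which encodes neuropilin 1, had 47.5 ± 14 CPM in controls (n = 7) and 31.3 ± 1.44 CPM in Lmna ADKO mice (n = 6), which gave -0.60 on the log2 scale (adjusted p 0.00464), while the value with FGF21 was -0.66 (adjusted p 0.0219). Without vehicle-treated control library 1 or 2 the first was -0.51 or -0.49, under the fold threshold, and without the 3 libraries that stand apart the second was -0.56 (adjusted p 0.202). Of 9 other Smads and Smad partners, 0 were called by edgeR and 0 by DESeq2, and the one that passed the adjusted p, named after its value was seen, was the inhibitory Smad6 with -0.54 (adjusted p 0.0038). Of 12 negative regulators, 1 was called higher and 0 lower, which is also near the share of all genes. This was Fkbp1a, which encodes a protein that holds TGFBR1 inactive, with 48.1 ± 7.8 CPM in controls (n = 7) and 74 ± 8.16 CPM in Lmna ADKO mice (n = 6), or 0.62 on the log2 scale (adjusted p 0.00202). It fell under the fold threshold without vehicle-treated Lmna ADKO library 3 or 6 (0.58 each) or without vehicle-treated control library 7 (0.55).

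Among 22 target genes that Smads are known to regulate, 8 were called higher and 2 lower with vehicle, where 8.48% of all genes were called. The list median was 0.5 against -0.014 for all genes. DESeq2 called 10 higher and 3 lower. By the adjusted p alone, 10 passed higher and 4 lower. The lower ones include Fn1 (-0.48, adjusted p 0.0247) and Smad6 (-0.54, adjusted p 0.0038), both under the fold threshold and named after their values were seen. Ccn2, a matricellular protein gene long used as a readout of TGF-beta, had 3.17 ± 1.37 CPM in controls (n = 7) and 12.1 ± 4.03 CPM in Lmna ADKO mice (n = 6), a log2 fold change of 1.93 (SE 0.266, adjusted p 2.19e-05). Tagln, which encodes a smooth muscle actin-binding protein, had a log2 fold change of 1.36 (SE 0.147, adjusted p 2.55e-07). Neither Tagln nor Ccn2 overlapped between groups, as for 7.95% of all genes. Both were called with vehicle under each alternative run. The genes called lower, named here after their values were seen, were Id2 (-0.82, adjusted p 0.0208) and Id3 (-0.75, adjusted p 0.0344), which are classic targets of the BMP branch. Both missed the threshold without the 3 libraries that stand apart, at an adjusted p of 0.0534 for Id2 and 0.06 for Id3, and with the number series as a covariate, at 0.0964 and 0.102.

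In the activin and BMP branch, 4 of 28 genes were called higher and 2 lower with vehicle, where 8.48% of all genes were called. The list median was 0.0. Inhbb, which encodes an activin subunit, had a log2 fold change of 1.38 (SE 0.235, adjusted p 0.000181), with 3.24 ± 1.47 CPM in controls (n = 7) and 8.48 ± 2.46 CPM in Lmna ADKO mice (n = 6). The related subunit gene Inhba went the other way, from 6.04 ± 2.12 CPM (n = 7) to 2.48 ± 0.624 CPM (n = 6), with a log2 fold change of -1.28 (SE 0.288, adjusted p 0.003), and -0.88 with the number series as a covariate (adjusted p 0.0703). Fst, which encodes the activin-binding protein follistatin, was higher by 1.27 on the log2 scale (adjusted p 0.0264). Without the 3 libraries that stand apart it missed the threshold (1.16, adjusted p 0.0573), as it did without any of several single libraries.

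With FGF21 in both genotypes, 2 of the 94 genes were called higher and 3 lower in Lmna ADKO mice, 5.32% against 2.88% of all genes. The higher ones were Tagln (log2 fold change 0.95, adjusted p 0.00348) and Smurf1, which encodes a ubiquitin ligase that acts on Smads and receptors (0.75, adjusted p 0.00264). The lower ones were Nrp1, Inhba (-1.27, adjusted p 0.0298), and Acvr2b, an activin receptor gene (-1.05, adjusted p 0.0211). Without FGF21-treated control library 3, 1 was called higher and 0 lower, and Smurf1 had 0.58 (adjusted p 0.0427). Inhba and Acvr2b also missed the threshold without the 3 libraries that stand apart, at an adjusted p of 0.0942 and 0.0801. In the comparisons of FGF21 with vehicle and in the interaction, edgeR and DESeq2 each called 0 of the 94, and the genes at an unadjusted p under 0.05 by edgeR were 9 in controls, 4 in Lmna ADKO mice, and 7 for the interaction.

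**Figure D3:**
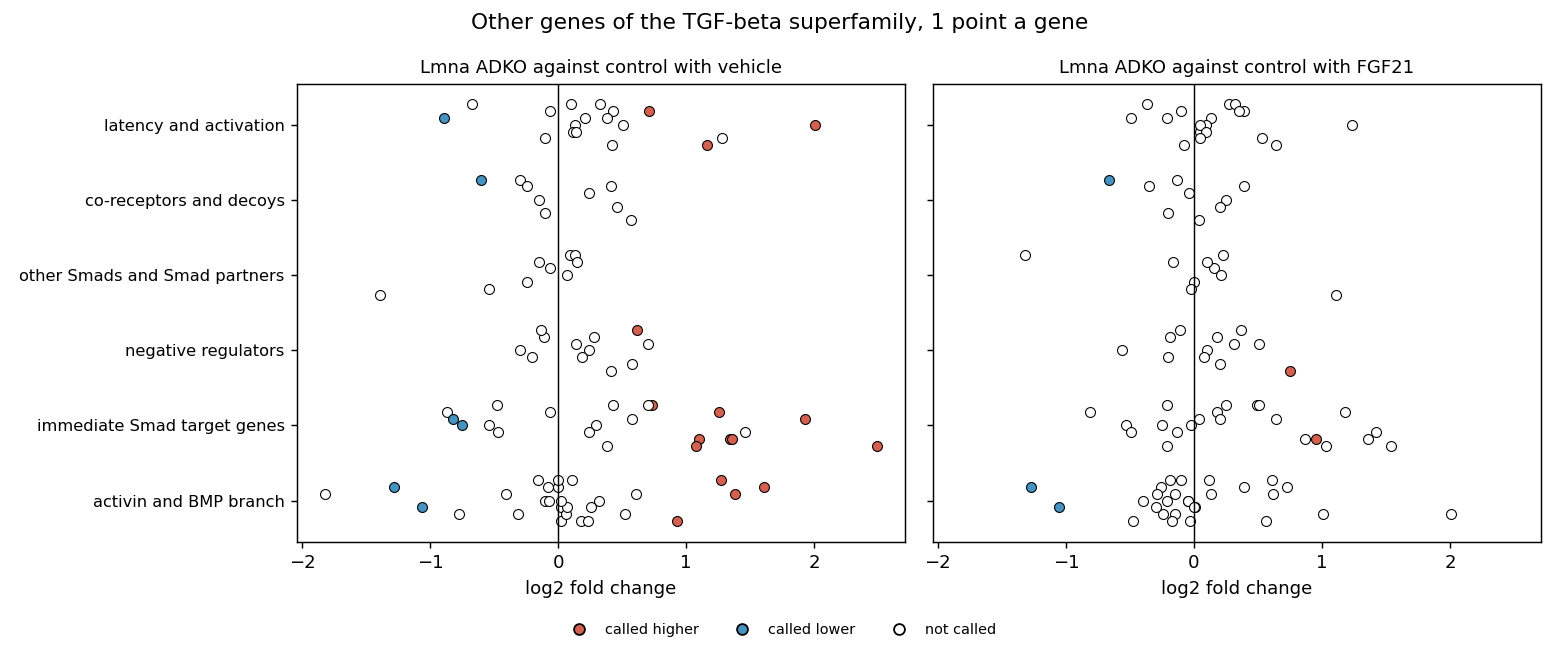
Log2 fold change (horizontal axis) of each of the other listed genes, 1 point a gene in rows by role, for the genotypes with vehicle and with FGF21. Red and blue points were called higher and lower. Among target genes, 8 are red and 2 blue with vehicle, and 1 is red with FGF21.

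Markers of some liver cell types, of which those named were chosen after their values were seen, differed between the same groups. With vehicle, 8.48% of all genes were called between genotypes. Of 10 stellate cell and fibroblast markers, 4 were called higher and 0 lower in vehicle-treated Lmna ADKO mice. Among the called ones, Col3a1 and Acta2 also belong to the list of target genes above, so the 2 lists are not separate. Col3a1 missed the threshold without the 3 libraries that stand apart (0.98, adjusted p 0.0904) and with the number series as a covariate (1.21, adjusted p 0.0954). The summed level of the 10 markers was 241 to 344 CPM in vehicle-treated controls and 278 to 298 in FGF21-treated controls. It was 325 to 480 CPM in vehicle-treated Lmna ADKO mice and 294 to 533 in FGF21-treated Lmna ADKO mice. Dcn made up the largest part of this sum, with a mean of 138 CPM in vehicle-treated controls and 189 CPM in vehicle-treated Lmna ADKO mice. Col3a1 had means of 36.4 and 76.7 CPM in these groups. Within the list, the stellate cell markers Lrat and Reln did not move together, with a log2 fold change of 0.74 for Lrat (adjusted p 0.0135) and median levels of Reln of 42.5 CPM in controls and 38.7 CPM in Lmna ADKO mice. The median of Des was 6.48 CPM in these controls and 5.76 CPM in these Lmna ADKO mice, and that of Pdgfrb 8.75 and 9.83 CPM. Cholangiocyte markers summed to 27.2 to 51.6 CPM in vehicle-treated controls and 85.9 to 196 CPM in vehicle-treated Lmna ADKO mice, with 1 of 6 called higher, Spp1. Spp1 alone made up most of this sum, with 23.3 to 45.3 CPM in these controls and 78.7 to 186 CPM in these Lmna ADKO mice. Of 8 hepatocyte markers, 3 were called lower and 0 higher, and their sum was 87010 to 149846 CPM and 72971 to 110000 CPM. Macrophage markers (2 of 9 called higher) summed to 612 to 846 and 488 to 810 CPM, and endothelial markers (1 of 8 called higher, Lyve1) to 301 to 393 and 289 to 357 CPM. These sums overlapped between the groups, and the list medians of the log2 fold change were -0.01 and -0.08. Of the markers of lymphocytes and neutrophils, platelets, and adipocytes, 0 of 9, 0 of 4, and 0 of 4 were called by edgeR without a filter. With filterByExpr, the adipocyte marker Cfd was called higher (log2 fold change 1.79, adjusted p 0.0311). In that fit the lymphocyte marker Nkg7 was called lower (-0.84, adjusted p 0.0449). The part of these shifts in the levels of Tgfbr2, Tgfb2, and Tgfb3 was not tested.

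**Figure D4:**
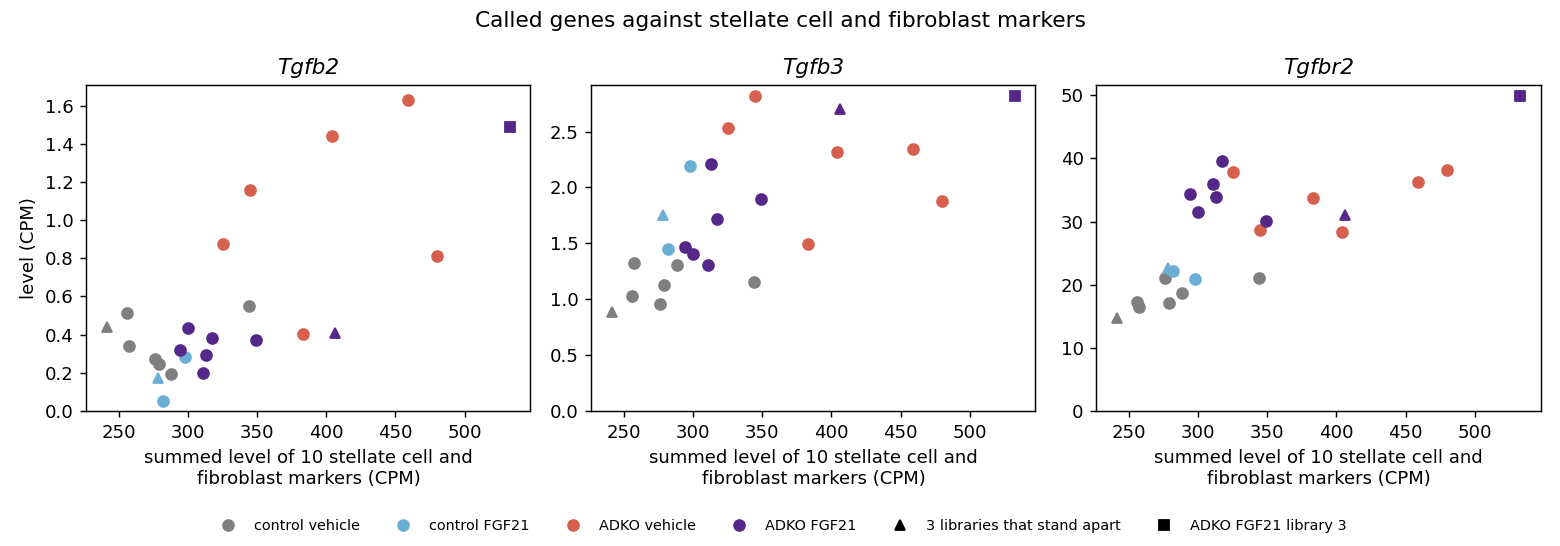
Level in CPM of Tgfb2, Tgfb3, and Tgfbr2 (vertical axes) against the summed level of 10 stellate cell and fibroblast markers (horizontal axes) in every library. The marker sums, of which Dcn is the largest part with vehicle, run from 241 to 344 CPM in control libraries and from 294 to 533 CPM in Lmna ADKO libraries. Tgfbr2 runs from 14.8 to 22.6 and from 28.4 to 49.9 CPM.

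The 3 libraries that stand apart had unusual levels of several of the genes. Tgfb1 was higher than the median of the other libraries of its group by 1.05 on the log2 scale in FGF21-treated Lmna ADKO library 7 and by 0.82 in FGF21-treated control library 3, at 36.5 and 29.2 CPM, while the other 22 libraries lay between 12.6 and 19.6 CPM. Tgfbr3 was below that median by -0.69 and -0.63 in the same libraries, Smad3 by -0.57 and -0.67, and Smad7 by -0.68 and -0.95. In vehicle-treated control library 3, Tgfbr1 (-0.50), Smad7 (-0.49), and Smad2 (-0.40) were low. Tgfbr2 differed less, by -0.28 to 0.07 in the 3 libraries, and without them its log2 fold change between genotypes was 0.87 with vehicle (adjusted p 1.46e-06) and 0.77 with FGF21 (adjusted p 0.00646). Tgfb3 and Tgfb2 had 0.96 and 1.56 with vehicle without them, and both were still called. The part of gene length in these levels was not tested.

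**Figure D5:**
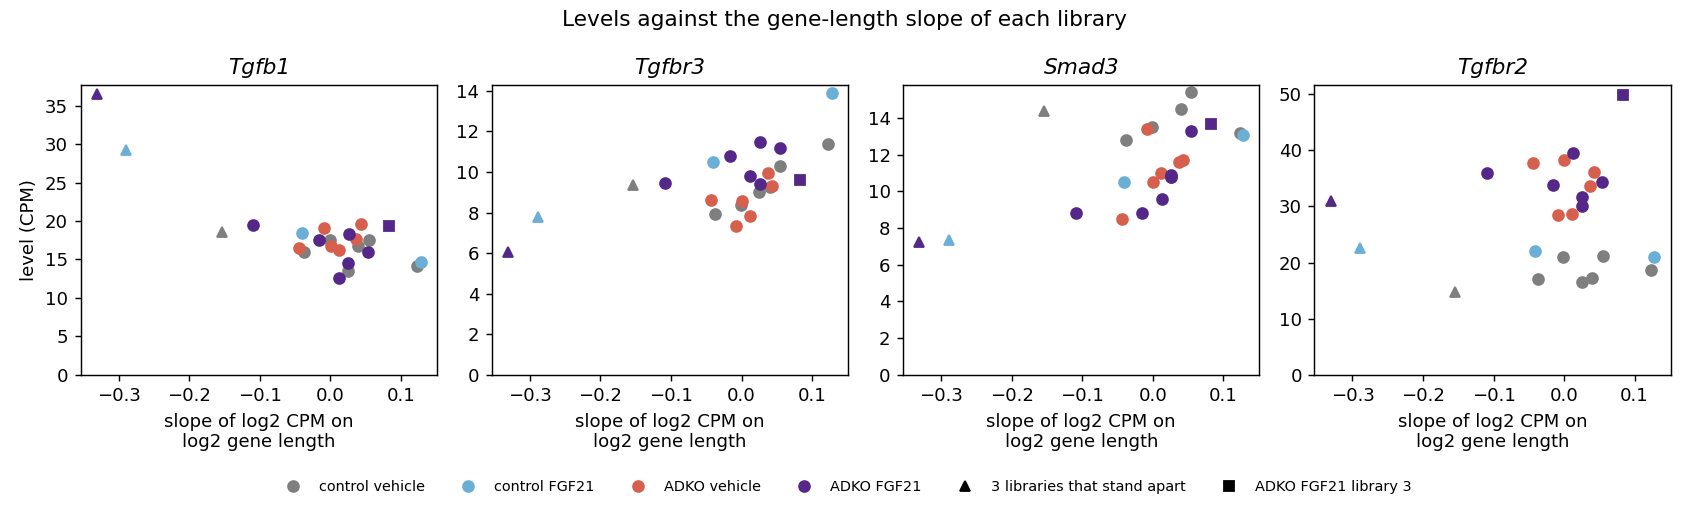
Level in CPM of Tgfb1, Tgfbr3, Smad3, and Tgfbr2 (vertical axes, from 0) against the gene-length slope of each library (horizontal axes). The slope is that of log2 CPM minus the median of the genotype on log2 gene length. The triangles at -0.331 and -0.289 carry the highest Tgfb1 levels, 36.5 and 29.2 CPM, and low Tgfbr3 and Smad3, and every Lmna ADKO library lies above every control library in Tgfbr2.

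For 9 of the 10 genes, those whose mean log2 CPM was 0 or more, the genes with the most similar pattern were found by Pearson's r of log2 CPM over 24 libraries, after the group mean was subtracted, among 9924 genes. All points come from the same libraries and share their depth and composition. For Tgfbr2 these were Atr (r = 0.77), Lpin3 (0.72), and Nat8f4 (0.71), and for Tgfb3 they were Alcam (0.76), Mrtfb (0.76), and Adamtsl2 (0.69). Without the 3 libraries that stand apart, Atr had 0.72 with Tgfbr2 and Alcam 0.75 with Tgfb3. The highest values were those of Tgfb1 with Myl12a and Dpm2 (0.92 each) and Plac9b (0.91), which were 0.76, 0.75, and 0.76 without these libraries. Smad2 was most similar to Pus10 (0.83), Vwa5a (0.82), and Lpgat1 (0.82), which were 0.62, 0.54, and 0.62 without them. For Tgfbr1 they were Nbeal1 (0.86), Sptbn1 (0.85), and Setd7 (0.84), for Tgfbr3 Cpsf7, Adpgk, and Anapc1 (0.90 each), for Smad3 AI661453 (0.87), Cgn (0.85), and Dsp (0.84), for Smad7 Sipa1l1 (0.83), Unc119b (0.82), and Slc16a1 (0.81), and for Tgfbi Cdkn2c (0.69), Ddx55 (0.66), and Arhgap9 (0.66).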

How the data were processed

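Liver RNA-Seq of 24 mice was analysed. The authors deposited raw counts of reads per gene and left out genes that were 0 throughout. Libraries were polyA-selected and strand-specific. The submitters' processing notes list cutadapt 4.8, FastQC 0.11.8, STAR 2.7.8a, RSEM 1.3.3, and GRCm38, without their roles, and if RSEM made the counts they are rounded estimates. Methods and labels name different sequencing providers. Genes were located in GENCODE M21, which held 23926 of 23972. In 67 pairs of libraries within groups, a chi-square test on genes of 20 or more reads gave 14.1 to 196 per degree of freedom, so no pair within a group looked like 1 library deposited again.

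Testing used TMM normalization and edgeR 4.0.16 (R 4.3.3, robust glmQLFit and glmQLFTest), in 1 fit of 4 groups over all genes with no filter, with Benjamini-Hochberg adjustment. SEs are the absolute log2 fold change over the square root of F, and 95% intervals are normal intervals from the SE. Levels in CPM were scaled by TMM, and a prior count of 2 was added for log2 CPM. Replicate numbers follow the animal numbers and pair nothing. Alternatives were DESeq2 1.42.0, its size factors in edgeR, filterByExpr, the adjusted p alone, only the groups compared, the animal number series as a covariate or its 4-digit part alone, the gene-length slope as a covariate, and leaving out the 3 libraries that stand apart or each library in turn.

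The 10 genes, the lists, and the alternatives on length slope and libraries that stand apart were chosen with earlier results of these data known. Besides the 10 genes, the text names up to 3 called genes per list and comparison whose mean log2 CPM was 0 or more, by absolute log2 fold change, and the 3 most similar genes per gene. A gene that this rule names is not reported here. Promoters from RefSeq were found for 6 of the genes, and those of the rest are not used here. The script was tested on simulated counts.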

Additional observations from a re-analysis of the deposited data

Results flagged for a closer look

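Within groups of 6 to 8 libraries, 30 sets of levels were screened for a library far from the others by Dixon's test at the 95% level, and 4 were found, where chance alone gives about 1.5. Tgfb1 was 36.5 CPM in FGF21-treated Lmna ADKO library 7, and Tgfbr3 was 6.05 CPM in the same library, which stands apart by its gene-length slope. Smad2 was 10.2 CPM in vehicle-treated control library 3, which also stands apart. Tgfb2 was 1.49 CPM in FGF21-treated Lmna ADKO library 3, the library with the most summed stellate cell and fibroblast markers. Groups of 3 were not screened.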

How the results depend on the processing

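No paired analysis was possible because the replicate numbers only order the animals within each group. The calls of Tgfbr2, Tgfb2, and Tgfb3 with vehicle and of Tgfbr2 with FGF21 were kept under each alternative run. The log2 fold change of Tgfbr2 ran from 0.86 to 0.96 with vehicle (highest adjusted p 5.52e-05) and from 0.62 to 0.77 with FGF21 (highest 0.049), that of Tgfb2 with vehicle from 1.34 to 1.90 (highest 0.0317), and that of Tgfb3 from 0.87 to 1.09 (highest 0.0156). With 1 library left out at a time, 0 to 1 of the 10 genes were called for FGF21 in Lmna ADKO mice.

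Of 1140 recomputed values of the 10 genes, 75 changed sign, all of them of genes that were not called. Without the 3 libraries that stand apart, Tgfb1 was 0.03, Tgfbr1 0.00, and Smad3 -0.12 between genotypes with FGF21, Smad7 was 0.13 in controls, in Lmna ADKO mice Tgfb1 was -0.07 and Smad2 0.01, and Tgfb2 had an interaction of 0.00. With the length slope, Smad3 was -0.03 between genotypes with FGF21, Smad7 0.05 in controls, and Tgfb1 -0.02 and Smad2 0.01 in Lmna ADKO mice. Smad3 with FGF21 was -0.01 by DESeq2 and by its size factors, -0.18 with the number series, and -0.19 with 4-digit numbers. With the number series, the interaction of Smad3 was -0.15 and Tgfbi was -0.04 in Lmna ADKO mice. With 4-digit numbers the value of Tgfbr2 for FGF21 in Lmna ADKO mice was -0.05, and DESeq2 gave Tgfb2 an interaction of 0.00.

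With 1 library left out, values that changed sign ran, between genotypes with FGF21, from -0.31 to 0.22 for Tgfb1, -0.02 to 0.28 for Tgfb3, -0.03 to 0.26 for Tgfbr1, -0.33 to 0.09 for Tgfbr3, and -0.19 to 0.22 for Smad3. In controls they ran from -0.15 to 0.14 for Tgfbr1, -0.03 to 0.38 for Tgfbr3, -0.02 to 0.08 for Smad2, and -0.27 to 0.19 for Smad7. In Lmna ADKO mice they ran from -0.07 to 0.20 for Tgfb1, 0.00 to 0.12 for Tgfbr2, -0.04 to 0.02 for Smad2, and -0.04 to 0.05 for Tgfbi. For the interaction they ran from -0.42 to 0.11 for Tgfb1, -0.53 to 0.63 for Tgfb2, -0.25 to 0.04 for Tgfbr1, -0.20 to 0.21 for Tgfbr3, -0.10 to 0.01 for Smad2, and -0.29 to 0.17 for Smad7. The cause was not tested.

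Of all genes, 2033 were called between genotypes with vehicle, and 3623 by the adjusted p alone. With FGF21, 690 were called, 344 with only the groups compared, 316 with 4-digit numbers, 402 without the 3 libraries that stand apart (and 3 of the 94 listed genes, in place of 5), and 339 to 1149 with 1 library left out. In controls 13 were called, 38 by DESeq2, 0 with the number series, and 3 to 26 with 1 library left out. In Lmna ADKO mice 0 were called, 15 by DESeq2, 2 with 4-digit numbers, and 0 to 61 with 1 library left out, 61 being without FGF21-treated library 3. For the interaction 1 was called, 11 by DESeq2, 2 with its size factors, 2 with filterByExpr, 0 with the number series, 3 with the length slope, 5 without the 3 libraries, and 0 to 5 with 1 left out. The 4-digit fit was not run for the comparisons with vehicle-treated controls, which leave 1 library in that group. The depth limits Tgfb2 most, at 1 to 39 reads per library.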
